A study of Drosophila melanogaster with 6 samples.

Results

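The late puff genes of the polytene band region 71E were examined in male larvae of Drosophila melanogaster with and without functional MSL2. The group holds 10 genes, Eig71Ea, Eig71Eb, Eig71Ec, Eig71Ed, Eig71Ef, Eig71Eg, Eig71Eh, Eig71Ei, Eig71Ej and Eig71Ek, and was defined by these symbols in the platform annotation of the array. The annotation pairs 8 of the 10 with a probe set, 1 probe set each, among 18769 probe sets that are not array controls. Eig71Eb and Eig71Ec are not analysed here.

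RNA came from male larvae in their last instar on 6 one-colour Affymetrix Drosophila Genome 2.0 arrays. The mutant group (3 arrays) has the genotype yw/Yy+;msl21/msl21 and the control group (3 arrays) yw/Yy+;msl21/+, so both groups carry the EMS-induced allele msl21 and the same sex chromosomes, and the controls are heterozygous rather than wild type. Each array holds a separate RNA preparation from a pool of at least 50 larvae, and more where larvae were small, so the replicate is the pool. The age of the larvae within the instar is not given in the labels. MSL2 is a subunit of the complex that raises expression from the single X chromosome of males, and the series asks which genes need it. The late puff genes lie on chromosome arm 3L.

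The steroid hormone ecdysone drives the end of larval life in the fly. In the giant chromosomes of the salivary gland its pulse is seen as early puffs, at genes for transcription factors such as those of the Broad complex (br) and E74, followed hours later by late puffs at genes that these factors switch on. The 71E late puff holds a cluster of small genes, also called L71 genes, arranged largely as divergently transcribed pairs. They encode small, basic, cysteine-rich secreted peptides that resemble defensins, and are known to be active in the salivary gland around puparium formation and in the prepupa. How close the larvae sampled here were to puparium formation is not given. Eig71Ee lies within the cluster but follows another programme: it is an intermoult gene, active with the glue genes in the larval gland, and encodes a secreted mucin.

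All 8 measured late puff genes had dim signals on every array. The values are log2 expression values made with RMA, which gives 1 value per probe set and array. The 48 values (8 probe sets, 6 arrays) lay between 2.54 and 4.98 with a median of 3.15, and 45 of them were under 4. All 8 probe sets had means within the dimmest 25% of probe sets, whose upper bound is 4.10. Their means over the 6 arrays lay between the 0.448th percentile (Eig71Ek) and the 22.1th percentile (Eig71Eg) of all probe sets. Brightness depends on the probes as well as on the transcript, so these percentiles do not rank the genes by abundance. Detection calls were not used here, so a transcript at a low level and one that is absent cannot be told apart in this range. RMA also compresses differences between dim probe sets.

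**Figure D1:**
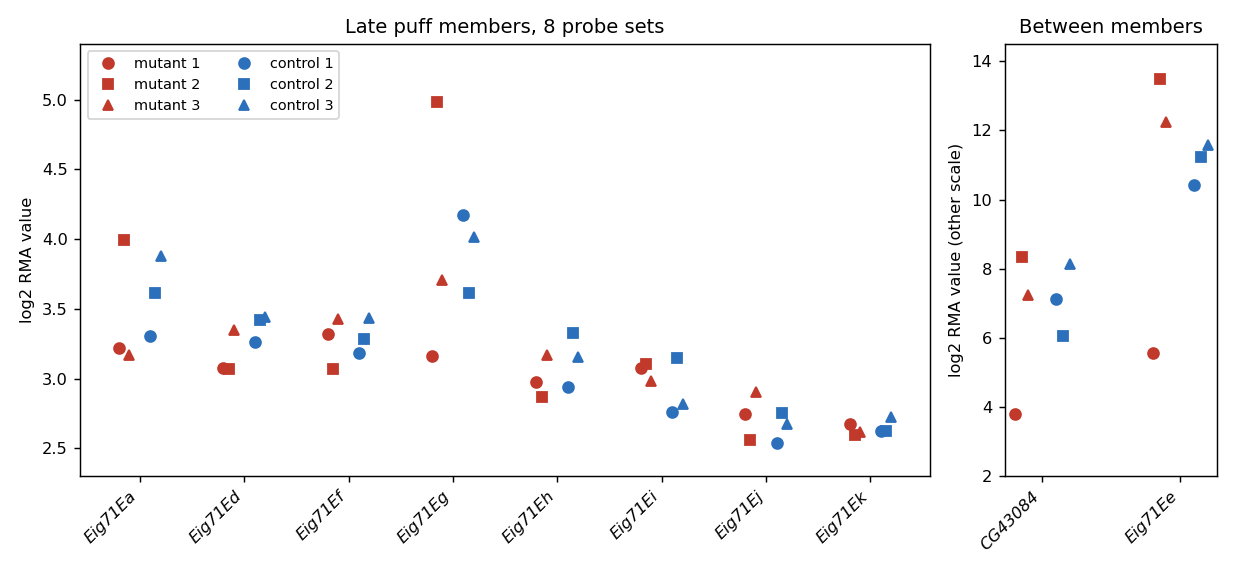
Log2 RMA value (vertical axes, with different scales in the left and right panels) of each of the 6 arrays, for the 8 measured late puff genes and for the measured genes lying between them, CG43084 and Eig71Ee. Colour gives the genotype and symbol shape the replicate number; most late puff values lie under 4, with the highest, 4.98, for Eig71Eg in mutant replicate 2.

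Among the late puff genes Eig71Eg, listed as gene VI of the cluster in the gene table, varied most between arrays. Its log2 values over replicates 1, 2 and 3 were 3.16, 4.98 and 3.70 for the mutants and 4.17, 3.62 and 4.01 for the controls. Mutant replicate 1 was the lowest array and mutant replicate 2 the highest, and the controls lay between them. The 3 mutant arrays spanned 1.82 log2 units and the 3 control arrays 0.55. Only 3 of the 4692 probe sets in the dimmest 25% had a wider range over the 6 arrays than Eig71Eg, or 0.0639% of them, and 4.05% of all probe sets did. The group means were 3.95 ± 0.93 in the mutants and 3.93 ± 0.29 in the controls (SD, n = 3 each), so the genotypes had nearly the same mean while the mutant pools differed among themselves.

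Eig71Ea, gene I at one end of the cluster, had the second widest range. In the same order it was at 3.22, 3.99 and 3.17 for the mutants and at 3.30, 3.61 and 3.88 for the controls. Its highest array was again mutant replicate 2, with control replicate 3 close below it, and its lowest was mutant replicate 3. The range of 0.82 was exceeded by 4.62% of the dimmest probe sets. The groups overlapped, with means of 3.46 ± 0.46 and 3.60 ± 0.29 (mutant and control, SD, n = 3 each).

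The other 6 late puff genes had narrower ranges over the 6 arrays than Eig71Eg and Eig71Ea. These lay between 0.13 (Eig71Ek) and 0.46 (Eig71Eh), against a median range of 0.42 in the dimmest 25% of probe sets and of 0.60 in all. Eig71Ed, gene IV, had 3.08, 3.07 and 3.35 in the mutants (replicates 1, 2 and 3) and 3.26, 3.42 and 3.44 in the controls (likewise). Mutant replicates 1 and 2 lay under every control, and mutant replicate 3 lay among the controls. Eig71Ef, gene V, had 3.32, 3.07 and 3.43 in the mutants and 3.18, 3.28 and 3.43 in the controls. Its lowest array was mutant replicate 2, the array in which Eig71Eg and Eig71Ea were highest.

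The genes from Eig71Eh to Eig71Ek, which follow Eig71Eg in gene order, lay at or below the 4.87th percentile of brightness. Eig71Eh had 2.97, 2.87 and 3.17 in the mutants (in the order of the replicate numbers, as above) and 2.94, 3.33 and 3.15 in the controls. Eig71Ei had 3.08, 3.11 and 2.98 in the mutants and 2.76, 3.15 and 2.82 in the controls. In both genes the controls spread more widely than the mutants. Eig71Ej had 2.74, 2.56 and 2.90 in the mutants and 2.54, 2.76 and 2.67 in the controls. Eig71Ek had 2.67, 2.59 and 2.61 in the mutants and 2.62, 2.63 and 2.72 in the controls, and 98.7% of the dimmest probe sets had a wider range. The groups overlapped in each of these genes.

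**Figure D2:**
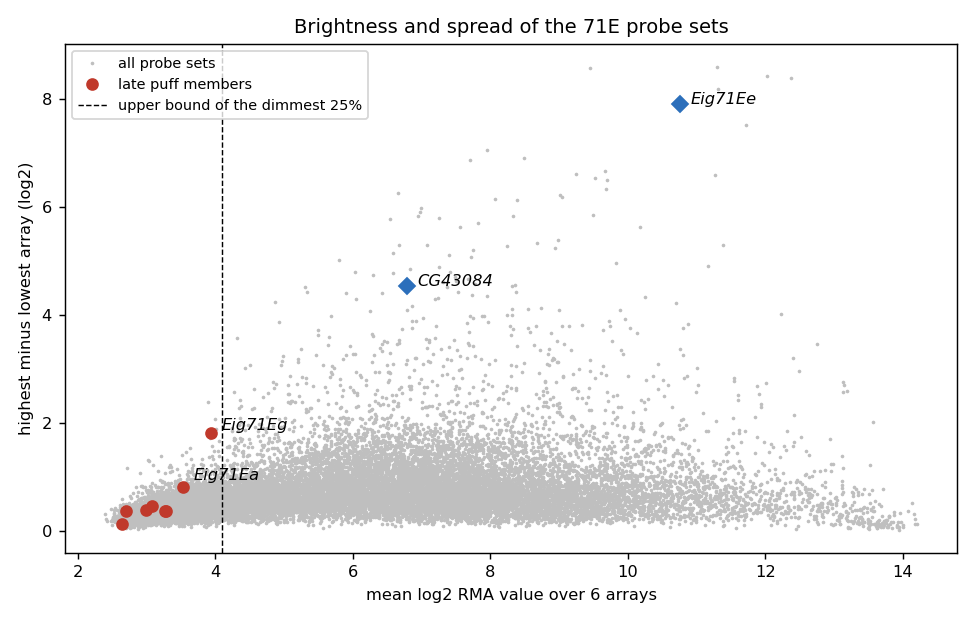
Mean log2 RMA value over the 6 arrays (horizontal axis) against the difference between the highest and the lowest array (vertical axis, log2) for 18769 probe sets, with the 8 late puff genes as red circles and CG43084 and Eig71Ee as blue diamonds. All 8 late puff genes lie left of the dashed bound at 4.10, and Eig71Eg stands out from them with a range of 1.82.

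No difference between the genotypes was detected for any measured late puff gene. With limma over all 18769 probe sets, 0 of the 8 passed an adjusted p of 0.05 and 0 had an unadjusted p under 0.05; their adjusted p lay between 0.80 and 0.999. Over all probe sets tested, 3 passed as higher in the mutants (0.016% of those tested) and 3 as lower (0.016%), and 7.51% had an unadjusted p under 0.05. Of these 6 probe sets, only those of CG11893 and CG31676 are paired with a single gene symbol, and both were lower. With so few calls in the table, the absence of calls among 8 dim probe sets is not particular to them. Without mutant replicate 2, when 7.08% of all probe sets passed, 0 of the 8 did. The groups overlapped in all 8 late puff genes. They did not overlap in 11.9% of all probe sets, and 0 of 8 is near this share. The median mutant minus control difference was -0.03 over the 8 and 0.01 over all probe sets, with 5 of the 8 below 0 and 3 above.

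The intervals of these differences bound what the arrays could have missed on the RMA scale. The largest difference was that of Eig71Ed, -0.21 (SE 0.14, 95% confidence interval -0.54 to 0.12, limma adjusted p = 0.80). Eig71Ei was at 0.15 (SE 0.15, -0.20 to 0.49), Eig71Eh at -0.14 (SE 0.16, -0.51 to 0.23) and Eig71Ea at -0.14 (SE 0.26, -0.76 to 0.49). Eig71Ej was at 0.08 (-0.26 to 0.42), Eig71Ek at -0.03 (-0.30 to 0.24) and Eig71Ef at -0.03 (-0.38 to 0.32). Eig71Eg was at 0.02 with the widest interval, -1.03 to 1.06 (SE 0.44). A difference in a transcript that is below what its probe set can measure in both genotypes would not be visible in these values.

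**Figure D3:**
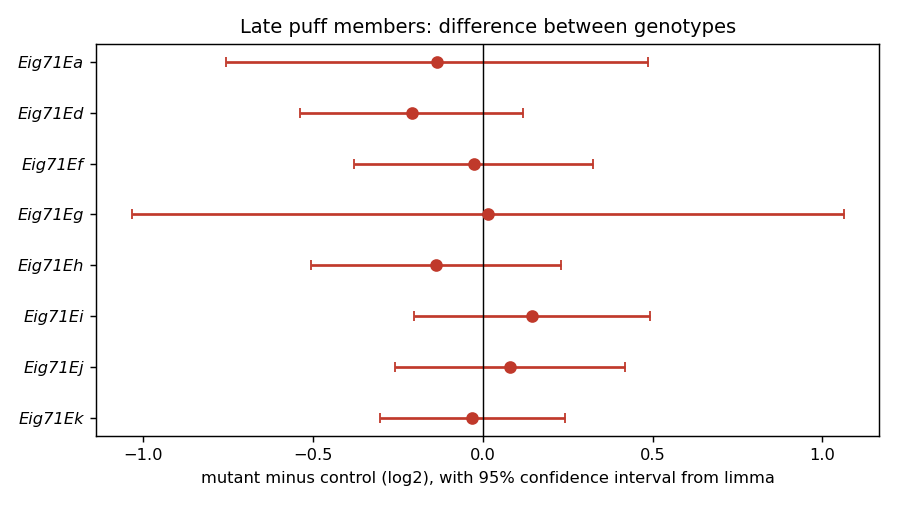
Mutant minus control difference (horizontal axis, log2) of the 8 measured late puff genes, as points with 95% confidence intervals from limma (3 arrays per genotype). Every interval includes 0, and that of Eig71Eg, from -1.03 to 1.06, is the widest.

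The SD was larger among the mutants than among the controls in 5 of the 8 late puff genes and smaller in 3. A larger mutant SD was found in 72.7% of the dimmest 25% of probe sets and in 79.8% of all, and a share of 5 in 8 is near these. The 8 genes had a median SD of 0.17 (mutants) and 0.16 (controls). In the dimmest 25% of probe sets it was 0.18 and 0.12, and in all probe sets 0.26 and 0.14.

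The genes that lie between the late puff genes gave another picture. Eig71Ee, the intermoult gene, had log2 values of 5.57, 13.49 and 12.23 over the mutant replicates and of 10.42, 11.24 and 11.59 over the control replicates. It was lowest in mutant replicate 1, by 5.51 against the control mean, and highest in mutant replicate 2. CG43084, which lies between Eig71Eb and Eig71Ec, had 3.80, 8.35 and 7.23 in the mutants and 7.13, 6.06 and 8.13 in the controls, again with mutant replicate 1 lowest and mutant replicate 2 highest. Only 0.0266% of all probe sets had a wider range than Eig71Ee and 0.304% a wider range than CG43084. Neither differed detectably between the genotypes, at -0.65 (SE 1.89, 95% confidence interval -5.12 to 3.82, limma adjusted p = 0.998) for Eig71Ee and -0.65 (SE 1.14, -3.35 to 2.06, limma adjusted p = 0.987) for CG43084. Without mutant replicate 1 the difference of Eig71Ee was 1.78, of the opposite sign (SE 0.47, 95% confidence interval 0.65 to 2.91, limma adjusted p = 0.532).

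Mutant replicate 1 lowest together with mutant replicate 2 highest, a pattern noticed in Eig71Eg and Eig71Ee after their values were seen, occurred in 1 of the 8 late puff genes. It occurred in 8.84% of all probe sets and in 1.9% of the dimmest 25%. In Eig71Ed mutant replicate 2 was the lowest array, in Eig71Ei control replicate 1 was, and in Eig71Ej mutant replicate 3 was the highest. Apart from Eig71Eg, none of the measured late puff genes had its lowest and its highest value in the same pools as the intermoult gene of their locus.

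The genes flanking the cluster did not share a direction either. Of the 6 nearest measured genes on each side, 7 had a difference below 0 and 5 above, and 2 (CG7304 and CG7579, at 0.10 and -0.09) were among the dimmest 25% of probe sets. On the side of Eig71Ea lie, from the far end, CG7656 (-0.14), RhoGAP71E (0.37), which encodes a GTPase-activating protein, CG7650 (-0.13), CG13449 (-0.32), comm3 (0.01) and Phs (-0.13). On the side of Eig71Ek, beyond CG7304 and CG7579, lie Pgant8 (0.56), an enzyme that starts O-linked sugar chains on proteins such as mucins, CG34452 (-0.46), CG34451 (-0.18) and comm2 (0.31). Only Pgant8 had groups that did not overlap, with 6.63, 7.10 and 6.57 in the mutants and 6.28, 6.14 and 6.22 in the controls (SE 0.17, limma adjusted p = 0.508). A count of 1 in 12 neighbours is near the 11.9% of all probe sets whose groups did not overlap.

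**Figure D4:**
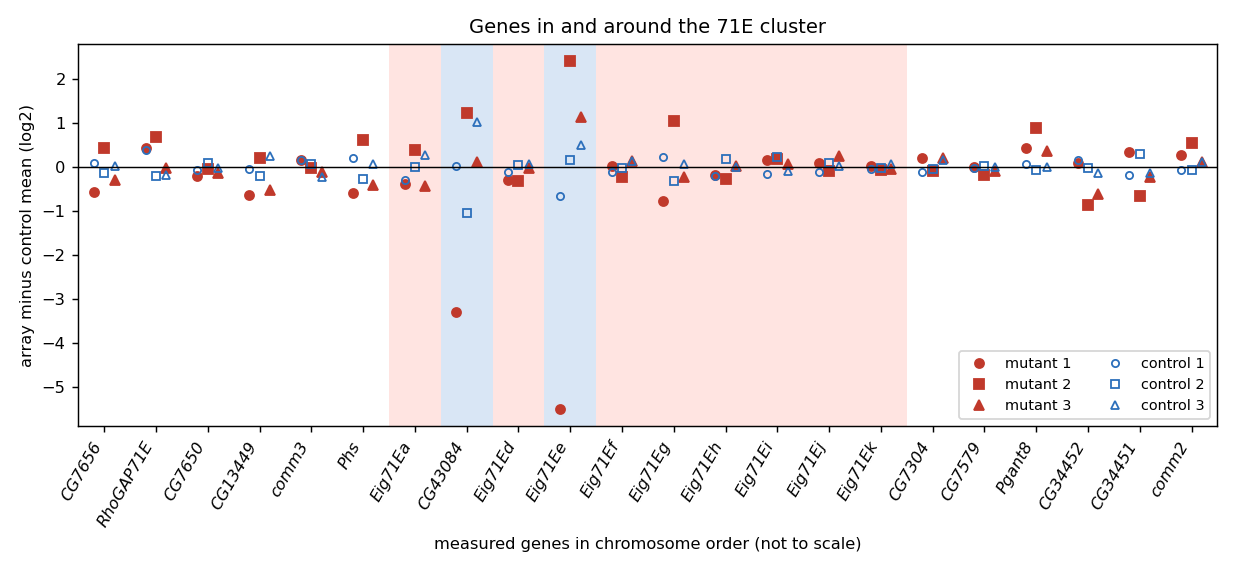
Value of each array minus the control mean (vertical axis, log2) for the measured genes of the 71E cluster and the 6 nearest measured genes on each side, in gene order (horizontal axis, not to scale). Pink marks late puff genes and blue the measured genes between them; mutant replicate 1 lies 3.31 under the control mean in CG43084 and 5.51 under it in Eig71Ee.

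The upstream regulators of the late puff were measured on the same arrays. Of 13 measured genes of the ecdysone receptor and early regulator list, 0 passed the test in either direction; 10 had a difference above 0 and the median was 0.27. E74 (Eip74EF) is not analysed here. The values of br, chosen after they were seen because its products switch on late puff genes, were 7.00, 10.37 and 9.10 over the mutant replicates and 9.31, 8.35 and 9.02 over the control replicates. As in Eig71Eg, mutant replicate 1 was lowest and mutant replicate 2 highest, which held for 1 of the 13 genes of the list (7.69%, against 8.84% of all probe sets). The difference of br between the genotypes was -0.07 (SE 0.79, limma adjusted p = 0.998). The genes of this list with the smallest p were ftz-f1, a nuclear receptor of the mid-prepupa, at 0.90 (SE 0.29, limma adjusted p = 0.537), Hr3, a receptor that acts ahead of it, at 0.59 (SE 0.22, 0.62), tai, a receptor coactivator, at 0.71 (SE 0.38, 0.743), and Kr-h1, a juvenile hormone target, at 0.27 (SE 0.18, 0.796). The values of ftz-f1 were 5.38, 4.27 and 5.12 in the mutants and 4.21, 3.83 and 4.02 in the controls, without overlap. The groups did not overlap in 2 of the 13 genes, ftz-f1 and Hr3, which is near the 11.9% of all probe sets. Of the 13 genes, 2 were in the dimmest 25% of probe sets. Hr3 was one, at 3.49, 2.81 and 2.71 over the mutant replicates and 2.42, 2.49 and 2.33 over the control replicates, the 0.815th percentile of brightness. The other was Eip93F, a regulator of salivary gland death that was also named after its values were seen, between 3.01 and 3.54 on all 6 arrays.

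Other genes with a hormone-dependent schedule were set beside the late puff. Of 12 measured genes of other ecdysone-inducible proteins, 0 passed, 9 were above 0 and the median was 0.38. Those with the smallest p were ImpE1 at 1.80 (SE 0.25, limma adjusted p = 0.116), MsrA at 0.87, Sb, a protease of disc eversion, at 0.49 and Cth at 0.31. The groups did not overlap in these 4 of the 12 genes, against 11.9% of all probe sets. Genes without overlap were not confined to this list. Of 10 genes of ecdysone synthesis and uptake 0 passed (median 0.03), with shd, which makes the active hormone, at 0.53, Ptth, the neuropeptide that triggers its synthesis, at 0.39, Oatp74D, an ecdysone importer, at 0.27 and dib, a synthesis enzyme, at -0.15. Of 8 salivary gland death genes 0 passed (median 0.11), with the autophagy genes Atg1 at 0.50 and Atg18a at 0.26, Diap2, a caspase inhibitor, at 0.18, and grim, a death inducer, at -0.12 and between 2.42 and 2.66 on all arrays. Of 3 pupal cuticle genes 0 passed (median 0.06), with Edg78E at 0.17, Edg84A at 0.06 and Edg91 at -0.37. Edg78E and Edg84A were in the dimmest 25% of probe sets like the late puff genes.

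Genes of the larval salivary gland were set beside the late puff as well. Of 12 measured glue and new-glue genes, Eig71Ee included, 0 passed, 10 had a difference below 0 (median -0.58) and 0 were in the dimmest 25%. In 8 of the 12, all of them outside the new-glue group, mutant replicate 1 was lowest and mutant replicate 2 highest. This order held in 8.84% of all probe sets. The list medians relative to the control means were -4.66, 0.52 and 0.13 in mutant replicates 1, 2 and 3. The 4 with the smallest p were new-glue genes, X-linked secretory genes of the younger gland, with ng3 at -0.43, ng1 at -0.57, ng2 at -0.48 and ng4 at 1.26. Of 8 genes of gland identity and secretion 0 passed (median 0.16), with fkh, the gland's forkhead factor, at 0.58, Papss, a sulfate donor synthase, at 0.39, Pgant9 at 0.30 and PH4alphaSG1 at -0.21, and none was in the dimmest 25%. In mutant replicate 1, where the glue list median was -4.66, the median of this gland identity list was 0.41 relative to the control means. Within it fkh was at 6.81 against a control mean of 5.93, and sage at 6.73 against 7.59. The arrays hold whole larvae of an age within the instar that is not given. The part of gland cell number, RNA per gland cell and larval age in these values was not tested.

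Since the late puff peptides resemble defensins, 12 measured antimicrobial peptide genes were set beside them. None passed (0 of 12), 6 were above 0 and 6 below, and the median was -0.00. Those with the smallest p were AttD at 1.42 (SE 0.59, limma adjusted p = 0.663), Def at 1.07 (SE 0.61, 0.765), Mtk at -0.70 (SE 0.42, 0.773) and Drsl2 at 0.70 (SE 0.69, 0.914).

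Markers of other tissues moved with the pools in part. The fat body list (Lsp2, Fbp1 and Fbp2, at -0.36, -1.80 and -0.13) holds the 3 measured of 6 listed genes. All 3 had mutant replicate 1 lowest and mutant replicate 2 highest, the order seen in Eig71Eg and in 8.84% of all probe sets. Fbp1 and Fbp2 are also among the 12 other ecdysone-inducible genes, of which 4 had this order. The list medians relative to the control means, for mutant replicates 1, 2 and 3, were -1.97, 1.15 and 0.28 in fat body, -0.36, 0.27 and -0.07 in 8 hemocyte genes, and -0.97, -0.00 and -0.82 in 8 testis genes. They were 0.45, 0.01 and 0.07 in 5 midgut genes and -0.20, -0.89 and -0.60 in 2 muscle genes. In these lists 0 genes passed; named by smallest p were He at -0.83, NimC1 at -0.41, Col4a1 at -0.17 and PPO2 at 0.22 for hemocytes, comr at -0.60, sa at -0.68, Mst84Da at -0.85 and Mst84Db at -0.97 for testis, Mal-A1 at 3.06, alphaTry at 0.98, betaTry at 0.06 and Jon65Aiv at -0.02 for midgut, and Mlc2 at -0.90 and up at -0.23 for muscle. The mean 3' minus 5' difference of 5 pairs of control probe sets is a sign of RNA quality. It stood at 2.19, 1.33 and 1.88 for mutant replicates 1, 2 and 3, and at 1.95, 1.80 and 1.85 for control replicates 1, 2 and 3. Mutant replicate 2, with the highest Eig71Eg, had the lowest value, and mutant replicate 1 the reverse. The controls did not share this inverse order: control replicate 1 was their highest and control replicate 2 their lowest in both measures. The part of tissue content and RNA quality in the values of Eig71Eg was not tested.

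The mean profile of the 8 late puff genes spanned little over the arrays, and over the mutants it rested largely on Eig71Eg. After centring each gene, the mean of the 8 genes over replicates 1, 2 and 3 was -0.15, 0.10 and -0.01 for the mutants and -0.08, 0.05 and 0.09 for the controls. Eig71Eg alone was at -0.78, 1.04 and -0.24 for the mutants and at 0.23, -0.32 and 0.07 for the controls. The mean of the other 7 genes was -0.06, -0.03 and 0.02 for the mutants and -0.12, 0.10 and 0.09 for the controls. In control replicates 1 and 2 the mean of all 8 had the sign of the other 7 genes, not that of Eig71Eg. Without Eig71Eg, mutant replicate 2 was thus no longer the highest array. Among 10745 other genes outside the dimmest 25%, the 10 whose values over the same 6 arrays were most like the profile of all 8 were Pp1-Y2, ZnT33D, CG4325, St4, CG15435, Ufc1, CG16799, tex, CG18343 and bou. Their Pearson correlations with it were between 0.97 (bou) and 0.99 (Pp1-Y2), given as a description over 6 arrays that share their normalization. None of the 10 lies on 3L, none is in the lists above, and their ranges, between 0.28 (Pp1-Y2) and 0.92 (CG4325), were small, so the resemblance is one of small differences picked from many genes.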

How the data were processed

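Expression was measured in whole male larvae on 6 arrays, 1 per pool. The deposited log2 values were made by the authors with RMA (background correction, normalization between arrays, 1 value per probe set), per the labels; GCOS 1.4 is named in the submitters' processing notes. The program that ran RMA is not given in the sources used here. Of 18952 probe sets, 183 array controls were left out. Of the remaining 18769, 13647 have 1 gene symbol, 402 several and 4720 are unnamed here. Symbols and gene order came from a RefSeq gene table of the assembly Release 6 plus ISO1 MT, with entries for 13544 of the 13647. No coordinates are printed, because the values name no build.

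Mutant and control were compared with limma 3.58.1 in R 4.3.3 (lmFit, eBayes, two-sided, equal weights) over all 18769 probe sets, with Benjamini-Hochberg adjustment and a threshold of 0.05. The procedure was tested on simulated data. Plots used Python 3.11.15 and matplotlib 3.10.9. Context lists use 1 probe set per gene, the one with the highest mean (11983 genes); listed names were matched by symbol or a single synonym. The lists cover ecdysone regulators, synthesis and inducible genes, glue, gland identity, gland death, antimicrobial peptides, fat body, hemocytes, midgut, muscle, testis and pupal cuticle. Named are all late puff genes, the genes between them, the 6 nearest measured genes on each side, the 4 list members with the smallest p, and the 10 genes with the most similar profile. Named outside this rule, after their values were seen, are br, Eip93F, sage, CG11893, CG31676 and, in the closing section, ImpL1, dj and can. The late puff genes and the lists were chosen with earlier results of these data known. No read depth exists for arrays, and their number limits the precision. No 2 arrays held identical values. Alternatives were another choice of rows, a filter on dim probe sets, centring, array weights, other variance priors, a replicate block, and leaving out each array.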

Additional observations from a re-analysis of the deposited data

How the results depend on the processing

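None of the 8 late puff genes passed the threshold under any alternative that could be fitted (0 of 96 values, limma adjusted p of 0.287 or above); under the filter that keeps the upper 75% of probe sets by mean all 8 dropped out and no value could be given. Without mutant replicate 2, when 7.08% of probe sets passed, it was also 0 of 8. The signs of Eig71Ed, Eig71Eh and Eig71Ei were kept under these alternatives. With array weights Eig71Ef was at 0.036 and Eig71Eg at -0.27. Leaving out 1 array at a time, the difference lay between -0.30 and -0.16 for Eig71Ed, -0.24 and -0.04 for Eig71Eh, 0.07 and 0.27 for Eig71Ei, -0.40 and 0.0092 for Eig71Ea, -0.11 and 0.076 for Eig71Ef, -0.50 and 0.41 for Eig71Eg, -0.004 and 0.17 for Eig71Ej, -0.054 and 0.0015 for Eig71Ek, and -2.18 and 1.78 for Eig71Ee. Eig71Eg was at -0.50 without mutant replicate 2 and at -0.14 when control replicate 2 was left out. The cause was not tested.

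Over all probe sets (3 higher and 3 lower), leaving out 1 array gave between 0 and 359 higher and between 0 and 970 lower, the highest of both without mutant replicate 2. Array weights gave 32 and 29, an intensity trend 5 and 6, centred arrays 3 and 7, and 1 probe set per gene 0 and 2. Of the context genes 0 passed in the main setting, 2 with array weights (ImpE1 and Mal-A1), and between 0 and 12 with 1 array left out. The 12, without mutant replicate 2, had limma adjusted p from 0.00703 to 0.0441. Higher were Mal-A1 (3.59), ImpL1 (2.73), ng4 (2.13), AttD (2.08), ImpE1 (1.87), ftz-f1 (1.23), MsrA (1.002) and Ptth (0.61), and lower were the testis genes dj (-1.10), sa (-1.01), can (-0.77) and comr (-0.71). With the title numbers as a replicate block 0 probe sets were higher and 0 lower; same-numbered arrays had correlations of 0.166, -0.331 and 0.064 in their deviations from the group means, so the numbers are not taken to pair the samples. RMA's low range limits all values of the late puff genes.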
